A study of Arabidopsis thaliana with 3 samples.

Results

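The group III WRKY factors described here are 9 transcription factor genes of Arabidopsis thaliana, WRKY30 (AT5G24110), WRKY38 (AT5G22570), WRKY41 (AT4G11070), WRKY46 (AT2G46400), WRKY53 (AT4G23810), WRKY54 (AT2G40750), WRKY55 (AT2G40740), WRKY62 (AT5G01900) and WRKY70 (AT3G56400). They were taken by locus, 9 of the 33602 genes counted. RNA from first-pair rosette leaves of accession Col-0, with no transgene or mutant allele named, was sequenced in 3 libraries, 1 per group. The groups were leaf explants at 2 days of wounding, a control at 2 days, and a control at the start, T0. All carry the label 12 days after sowing; the labels do not say at which point this age was taken, how many plants were pooled or at which hour. Explants were detached leaf pieces kept on B5 medium without carbohydrate, and seedlings had grown on MS medium under long days. The series text names the wound site of explants and the rest of the leaf. The labels do not say which of these each library holds, so it is not known whether 2-day control leaves were also cut.

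WRKY factors bind the W-box, a short DNA element found in many defence and senescence promoters, often including those of WRKY genes themselves. Group III proteins carry a single WRKY domain with a zinc finger of the C2HC type, and most of the genes answer to salicylate or to pathogens. In leaves, WRKY53 promotes senescence, while WRKY54 and WRKY70 act together in salicylate responses and delay senescence.

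The W-box was searched for in the 250 bases before each gene's annotated start, as TTGACC or TTGACT on either strand. Matches of the pair can share an end base, but none in the 9 windows overlap. Of all 27443 nuclear protein-coding promoters of that length, 28.4% held at least 1 match, 6.18% at least 2 and 1.06% at least 3. Of the 9 genes, WRKY30 had 3 matches, WRKY41, WRKY53 and WRKY62 had 2 each, WRKY55 had 1, and WRKY38, WRKY46, WRKY54 and WRKY70 had 0. The windows of 4 genes are shown, 5′ to 3′ on the gene's strand and ending next to the gene start, because these genes bear the results below: WRKY30 and WRKY53 were higher and WRKY70 lower in explants than in 2-day control leaves, and WRKY41 is the gene most like WRKY53 in sequence. They are from RefSeq, build TAIR10.1, whereas the submitters name TAIR10 and their count files hold no coordinates; gene starts are those of the RefSeq annotation and can differ from the authors'. The windows lie at chr5:8154711-8154960 (minus strand), chr4:12393983-12394232 (minus strand), chr4:6758848-6759097 (plus strand) and chr3:20910624-20910873 (minus strand). Capitals mark W-box matches, written as GGTCAA or AGTCAA where the match is on the other strand.
WRKY30: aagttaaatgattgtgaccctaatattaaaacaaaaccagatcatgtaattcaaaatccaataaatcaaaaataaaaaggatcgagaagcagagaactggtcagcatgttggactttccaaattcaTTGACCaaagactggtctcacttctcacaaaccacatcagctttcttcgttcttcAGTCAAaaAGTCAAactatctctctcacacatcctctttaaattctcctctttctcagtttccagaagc
WRKY53: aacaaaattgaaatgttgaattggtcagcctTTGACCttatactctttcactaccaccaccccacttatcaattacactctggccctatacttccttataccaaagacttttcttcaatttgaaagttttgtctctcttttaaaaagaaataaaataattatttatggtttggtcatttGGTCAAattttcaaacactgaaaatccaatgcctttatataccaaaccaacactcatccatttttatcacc
WRKY41: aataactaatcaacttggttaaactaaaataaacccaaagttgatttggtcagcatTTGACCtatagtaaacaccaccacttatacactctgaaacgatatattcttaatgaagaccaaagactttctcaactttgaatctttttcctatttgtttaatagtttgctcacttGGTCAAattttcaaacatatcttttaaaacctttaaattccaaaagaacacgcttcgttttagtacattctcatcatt
WRKY70: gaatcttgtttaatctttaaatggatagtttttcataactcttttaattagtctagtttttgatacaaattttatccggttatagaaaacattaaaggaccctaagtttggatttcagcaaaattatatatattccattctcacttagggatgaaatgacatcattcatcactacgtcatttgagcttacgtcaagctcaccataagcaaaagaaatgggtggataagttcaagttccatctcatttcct

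The WRKY41 and WRKY53 windows share an unbroken run of 19 bases around their second match, ttGGTCAAattttcaaaca, the longest run shared by any pair of the 9 windows; the next longest was 12 bases, between WRKY38 and WRKY70. Both genes have 1 match on the gene's strand farther out and 1 on the other strand nearer the start. A match describes letters only, and no binding was measured.

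**Figure D1:**
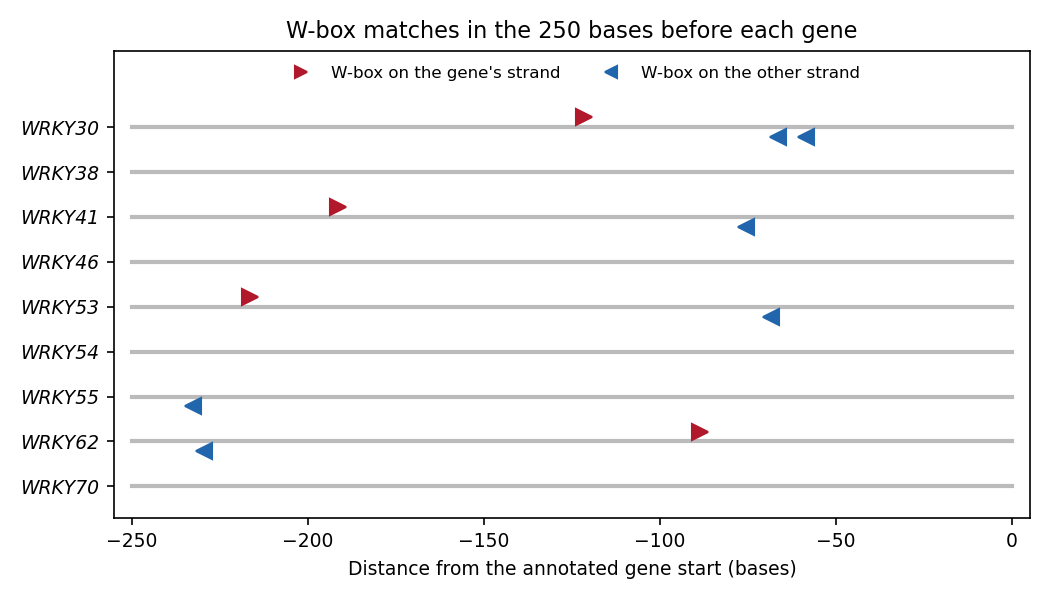
W-box matches in the 250 bases before each of the 9 genes, by distance from the annotated gene start in bases; right-pointing red marks are on the gene's strand and left-pointing blue marks on the other. WRKY30 has 3 matches, WRKY41, WRKY53 and WRKY62 have 2, WRKY55 has 1 and the other four genes have 0.

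The libraries held 46713257 gene counts in explants, 45097732 in 2-day control leaves and 43099934 at T0. Levels are CPM, counts set to a common library size by TMM, a method that sets the bulk of genes equal between libraries. With 1 library per group there was no replicate, p-value or standard error. A gene with at least 30 counts over the 3 libraries was called where its ratio lay beyond 2-fold together with the whole of its exact 95% counting interval, printed in brackets. Such a call compares these libraries and not the conditions, and the interval covers counting error only. No molecular tags are named in the labels, so copies of 1 molecule may be counted more than once. In leaf tissue as a whole, fewer cells of a type and less RNA per cell cannot be told apart. Leaf mesophyll genes had many counts in every library, though not all at steady levels. RBCS1A, the RuBisCO small subunit, had 85960 counts in explants, 95441 in 2-day control leaves and 90766 at T0. Scaled, these were 1712, 2001 and 2395 CPM. CAB3, of the light-harvesting complex, had 11485, 17508 and 127995 counts in the same order, or 229, 367 and 3377 CPM.

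Of the 9 genes, 6 reached 30 counts, and WRKY38, WRKY55 and WRKY62 did not, with 28, 26 and 13 counts over the 3 libraries. WRKY30 reached it only through explants, which held 181 of its 208 counts. Since the filter admitted it for being high there, counts and medians over the 6 genes are also given without it, a choice made after seeing the data; of all 20109 genes past the filter 1446 passed through 1 library alone. The genes were ordered by CPM per kb of exon, which allows levels of different genes to be compared. In explants WRKY53 stood first at 32.1 CPM per kb, then WRKY70 at 23.7, WRKY54 at 6.05, WRKY46 at 3.29, WRKY30 at 2.79 and WRKY41 at 0.761. In 2-day control leaves the order was WRKY70 at 51.6 CPM per kb, WRKY54 at 10.4, WRKY53 at 2.66, WRKY46 at 1.47 and WRKY41 at 0.427. At T0 it was WRKY70 at 37.5 CPM per kb, WRKY53 at 14.4, WRKY46 at 4.95, WRKY54 at 2.21, WRKY30 at 0.511 and WRKY41 at 0.381. Among the 3 libraries WRKY53 stood above WRKY70 in explants alone, where its level per kb was 1.35 times that of WRKY70 (1.27 to 1.44), against 0.0515 times in 2-day control leaves (0.0443 to 0.0596) and 0.383 times at T0 (0.353 to 0.416). Neighbours in these orders differed beyond counting error, with the exception of WRKY46 and WRKY30 in explants (ratio 1.18, 0.965 to 1.44), of WRKY41 and WRKY55 in 2-day control leaves (1.36, 0.707 to 2.66) and of WRKY30 and WRKY41 at T0 (1.34, 0.697 to 2.65). Adjacent genes below those named, at most 0.314 CPM per kb, did not differ beyond counting error; in 2-day control leaves WRKY30, at 0.0325 CPM per kb, came last.

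**Figure D2:**
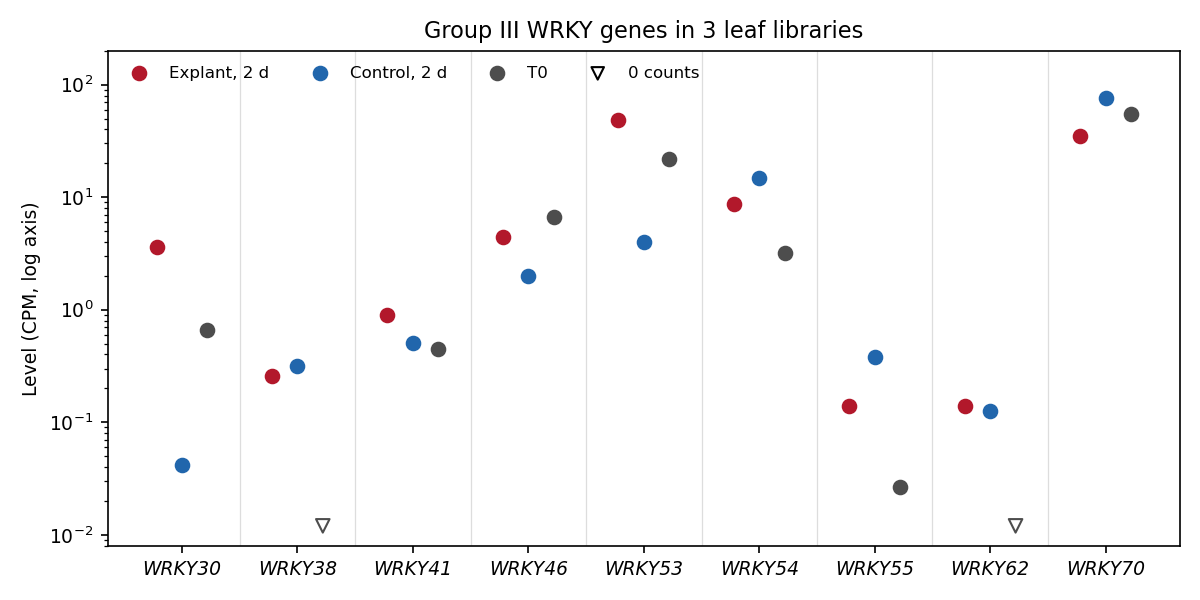
Level of each gene (CPM, log axis) in explants (red), 2-day control leaves (blue) and T0 (grey), 1 library each; open triangles mark 0 counts. WRKY53 and WRKY30 are highest in explants and lowest in 2-day control leaves, and WRKY70, WRKY54 and WRKY55 are highest in 2-day control leaves. WRKY38 is also highest there, with 15 counts against 13 in explants, a difference within counting error.

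Explants were set against 2-day control leaves to see how the wounded and the control leaf differed on the same day. WRKY53 and WRKY30 were higher and WRKY70 was lower in explants, 3 of the 6 genes that could be called. Over all 20109 genes tested 16.8% were called, 10.0% higher and 6.74% lower. The median log2 ratio of the 6 genes was 0.99, and -0.003 over all genes. Without WRKY30, 1 of 5 was higher and 1 lower, with a median of 0.82; over all genes that did not pass through 1 library alone, 7.30% were higher and 6.85% lower, with a median of -0.027. The 2 higher genes each hold at least 2 W-box matches in their windows, the lower one holds 0. WRKY41, with 2 matches, and WRKY46 and WRKY54, with 0 each, were not called. Of the genes below the count filter, WRKY62 holds 2 matches, WRKY55 1 and WRKY38 0. A link between matches and ratios was not tested.

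WRKY53, the senescence activator, had 2440 counts in explants, 192 in 2-day control leaves and 826 at T0, or 48.6, 4.02 and 21.8 CPM. It was 12.1-fold higher in explants than in 2-day control leaves (10.4 to 14.1). The 2-day control library was the low one for this gene, with less than either of the others. WRKY30, linked to oxidative stress and pathogen responses, had 181 counts in explants, 2 in 2-day control leaves and 25 at T0, or 3.60, 0.0419 and 0.660 CPM. Its ratio of explants to 2-day control leaves was 86.0 (23.5 to 715), an interval that is wide because 2-day control leaves had 2 counts. WRKY30 thus had the same order of libraries as WRKY53 at a lower level. WRKY70, which sits between salicylate and jasmonate signalling, had 1752 counts in explants, 3619 in 2-day control leaves and 2092 at T0, or 34.9, 75.9 and 55.2 CPM. It was 2.17 times lower in explants than in 2-day control leaves (2.05 to 2.30), a call lost with a stricter interval, whose bound in the ratio of explants to 2-day control leaves was 0.506. Its low library was that of explants and its high one that of 2-day control leaves, the reverse of WRKY53.

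WRKY54, the closest relative of WRKY70 in these sequences, had 435 counts in explants, 710 in 2-day control leaves and 120 at T0, or 8.66, 14.9 and 3.17 CPM. Its ratio of explants to 2-day control leaves was 0.582 (0.515 to 0.657), short of 2-fold. WRKY46, which acts in drought responses and with WRKY53 and WRKY70 in basal resistance, had 224, 95 and 254 counts in explants, 2-day control leaves and T0, or 4.46, 1.99 and 6.70 CPM. Its ratio was 2.24 (1.75 to 2.88), with an interval that reached under 2-fold. Both genes had intervals on 1 side of 1, WRKY46 on that of WRKY53 and WRKY54 on that of WRKY70. WRKY41, known from flagellin responses and seed dormancy, had 45, 24 and 17 counts, or 0.896, 0.503 and 0.449 CPM, and a ratio of 1.78 (1.06 to 3.06). WRKY38 and WRKY62, which interact with the histone deacetylase HDA19 and lower basal defence, had 13 and 7 counts in explants, 15 and 6 in 2-day control leaves and 0 each at T0. Their ratios of explants to 2-day control leaves were 0.823 (0.361 to 1.86) and 1.11 (0.319 to 3.99), so no difference could be detected with so few reads. WRKY55, which promotes leaf senescence, had 7 counts in explants, 18 in 2-day control leaves and 1 at T0, and a ratio of explants to 2-day control leaves of 0.369 (0.130 to 0.927).

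**Figure D3:**
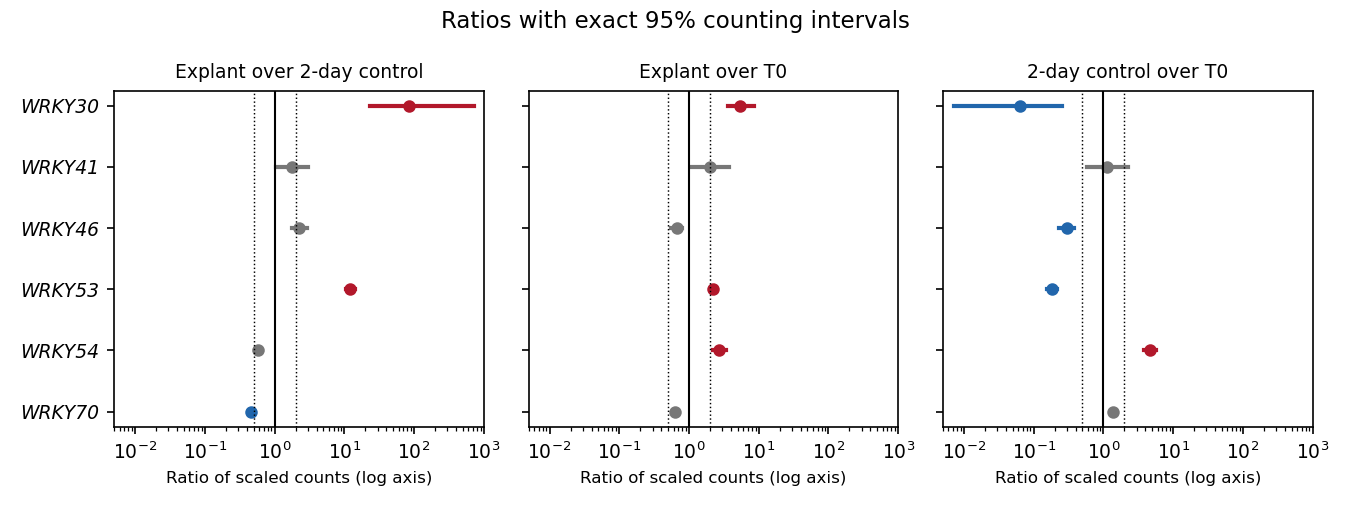
Ratio of scaled counts (log axis) in 3 comparisons for the 6 genes with at least 30 counts; bars are exact 95% counting intervals, dotted lines mark 2-fold, red is called higher, blue called lower and grey neither. WRKY53 stands at 12.1 in explants over 2-day control leaves and at 0.185 in 2-day control leaves over T0.

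Some of these counts carry a limit from overlapping gene models. In the reference annotation 20.5% of the exon bases of WRKY53 and 41.7% of those of WRKY41 also lie in a neighbouring gene, 3xHMG-box2 and 3xHMG-box1, which encode chromosome-binding HMG-box proteins. With no strand setting given, how reads in these stretches were treated is not known, and levels per kb of both WRKY genes may be too low. 3xHMG-box2 had 1099 counts in explants, 561 in 2-day control leaves and 498 at T0, and was called in no comparison; its part in the WRKY53 result was not tested. The other 7 genes overlap no model. No other gene matched any of the 9 at 95% identity over 100 bases; the closest pair, WRKY41 and WRKY53, had 80.5% identity over 389 bases, and WRKY54 and WRKY70 had 72.0% over 439. WRKY54 and WRKY55 are neighbours on chromosome 2, on opposite strands with 919 bases and no gene model between them. WRKY54 had 52.1 times the level per kb of WRKY55 in explants (25.1 to 130), 33.1 times in 2-day control leaves (20.8 to 56.1) and 101 times at T0 (17.7 to 4008).

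Explants were set against T0 to follow the leaf from the start to 2 days after wounding. WRKY30, WRKY54 and WRKY53 were higher and 0 genes were lower, 3 of 6, where 31.1% of all genes were called, 17.8% higher and 13.3% lower. WRKY30 was 5.47-fold higher (3.58 to 8.67), WRKY54 2.74-fold (2.23 to 3.38) and WRKY53 2.23-fold (2.06 to 2.42). WRKY70, WRKY46 and WRKY41 were not called, with ratios of 0.632 (0.593 to 0.674), 0.666 (0.554 to 0.800) and 2.00 (1.12 to 3.72). The median log2 ratio of the 6 was 1.07, and 0.026 over all genes. Without WRKY30, 2 of 5 were higher and 0 lower, with a median of 0.98. Over all genes that did not pass through 1 library alone, 15.6% were higher and 13.4% lower, with a median of -0.004. WRKY38 had 13 counts against 0, with a counting interval that began at 2.30-fold, and stayed below the count filter. The calls on WRKY53 and WRKY54 lie near the limit and were lost with a stricter interval, which reached down to 1.95 and 1.96.

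The 2-day control leaves were set against T0 to show the change over 2 days in the control. WRKY30, WRKY53 and WRKY46 were lower and WRKY54 was higher, 4 of 6, where 17.1% of all genes were called, 8.69% higher and 8.43% lower. WRKY30, with 2 counts against 25, was 15.7 times lower (3.92 to 137), WRKY53 5.41 times (4.62 to 6.37) and WRKY46 3.36 times (2.65 to 4.30). WRKY54 was 4.70-fold higher (3.87 to 5.75), while its relative WRKY70 had a ratio of 1.37 (1.30 to 1.45), short of 2-fold. WRKY41 had a ratio of 1.12 (0.578 to 2.23). The median log2 ratio of the 6 was -0.79, and 0.044 over all genes. Without WRKY30 the median was 0.16, with 2 of 5 lower and 1 higher, so its sign rests on that gene. Over all genes that did not pass through 1 library alone, 8.95% were higher and 8.18% lower, with a median of 0.045. Below the count filter, WRKY55 had 18 counts in 2-day control leaves against 1 at T0, a ratio of 14.3 (2.26 to 596). WRKY38 had 15 against 0, with a counting interval that began at 2.85-fold. Both comparisons with T0 share the T0 library. Scaling by total counts put the all-gene median log2 ratio at 0.315 for explants and 0.309 for 2-day control leaves over T0, and each of the 6 genes kept its call in these comparisons under that scaling.

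The levels of the 9 genes summed to 102 CPM in explants, 98.1 CPM in 2-day control leaves and 88.0 CPM at T0, while the share of each gene differed between libraries. WRKY53 made up 47.8% of their counts in explants (exact binomial 95% interval 46.4 to 49.2), 4.10% in 2-day control leaves (3.55 to 4.71) and 24.8% at T0 (23.3 to 26.3). WRKY70 made up 34.3% in explants (33.0 to 35.7), 77.3% in 2-day control leaves (76.1 to 78.5) and 62.7% at T0 (61.1 to 64.4). WRKY54 made up 8.52% in explants (7.77 to 9.32), 15.2% in 2-day control leaves (14.1 to 16.2) and 3.60% at T0 (2.99 to 4.29). In explants WRKY53 and WRKY70 together made up 82.1%, against 81.4% in 2-day control leaves and 87.5% at T0.

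**Figure D4:**
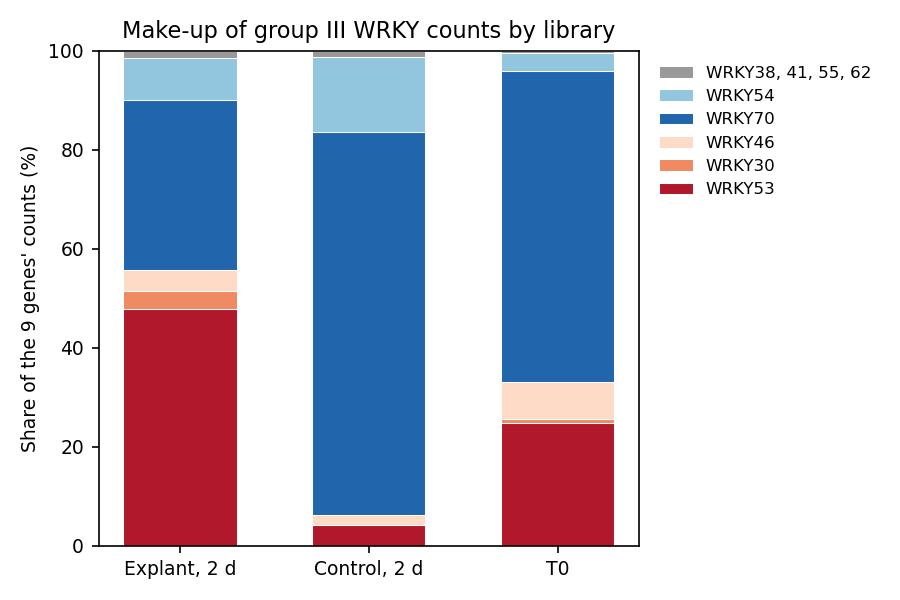
Share (%) of the counts of the 9 genes in explants, 2-day control leaves and T0, 1 library each. WRKY53, WRKY30, WRKY46, WRKY70 and WRKY54 are drawn singly, and WRKY38, WRKY41, WRKY55 and WRKY62 together. The WRKY53 share is 47.8% in explants, 4.10% in 2-day control leaves and 24.8% at T0.

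Of the other genes placed in group III here, WRKY63 had 10 counts in explants, 3 in 2-day control leaves and 1 at T0. WRKY66 had 5, 2 and 0, and WRKY64 and WRKY67 were listed at 0 throughout. WRKY52, the best sequence match of WRKY55 (80.3% identity over 66 bases), was not placed in group III here. The WRKY genes outside group III as used here numbered 59, WRKY52 among them, of which 49 could be tested. In explants over 2-day control leaves 27 of them (55.1%) were higher and 1 (2.04%) was lower, with a median log2 ratio of 1.31. Of these 27, 8 passed the filter through explants alone. Without them 19 of 41 (46.3%) were higher and 1 lower, with a median of 0.77. Over all genes that did not pass through 1 library alone, 7.30% were higher and 6.85% lower. WRKY61 and WRKY9, both among those 8, led on the higher side, with 787 and 566 counts against 0. Their counting intervals began at 202-fold and 145-fold. WRKY13 was the lower one, at 16.0 times (6.56 to 50.7). Over T0, 25 (51.0%) were higher and 2 (4.08%) lower in explants (median 1.34), led by WRKY31 and WRKY72 against WRKY13 and WRKY22. Without the 8, 17 of 41 were higher, with a median of 0.74. The shares over all genes were 17.8% higher and 13.3% lower, or 15.6% and 13.4% without those that passed through 1 library alone. In 2-day control leaves over T0, 7 (14.3%) were higher and 6 (12.2%) lower (median 0.311), against 8.69% and 8.43% of all genes. WRKY60 was 86.2-fold higher (50.3 to 162) and WRKY45 8.39-fold (5.56 to 13.2). WRKY40 was 12.1 times lower (10.9 to 13.5) and WRKY33 7.82 times lower (7.46 to 8.21). Scaled by total counts, 12 were higher and 6 lower in 2-day control leaves over T0. WRKY40 and WRKY33, which act early in defence, had 2635 and 9177 counts in explants, 389 and 1997 in 2-day control leaves and 3738 and 12416 at T0, and 2-day control leaves were the low library for both, as for WRKY53.

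**Figure D5:**
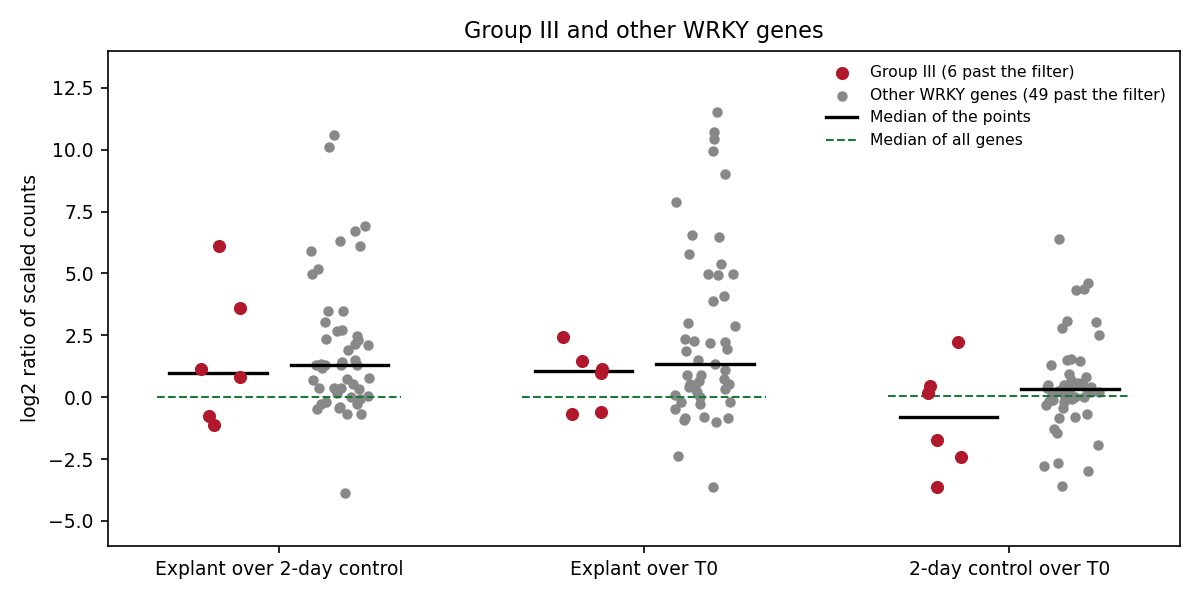
log2 ratio of scaled counts (prior count 0.5) for the 6 group III genes (red) and 49 other WRKY genes (grey) in 3 comparisons; black bars are medians of the points and green dashes the median of all genes. In explants over 2-day control leaves the medians are 0.99 for group III and 1.31 for the other WRKY genes, or 0.82 and 0.77 without genes that passed the filter through 1 library alone.

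Since most group III genes are known to answer to salicylate, its pathway was read beside them. Over all genes 10.0% were higher and 6.74% lower in explants over 2-day control leaves. In explants over T0 these shares were 17.8% and 13.3%, and in 2-day control leaves over T0 8.69% and 8.43%. Of 9 synthesis genes, 1 (11.1%) was higher and 1 (11.1%) lower in explants over 2-day control leaves (median log2 ratio 0.196), near the shares over all genes. The higher one was CBP60g, a transcription factor that turns on salicylate synthesis, with 1184 counts in explants, 325 in 2-day control leaves and 1420 at T0, 3.46-fold higher (3.06 to 3.92). The lower one was ICS2, the minor isochorismate synthase, 3.03 times lower (2.24 to 4.16), whereas ICS1, the main one, had 548, 416 and 611 counts and was called in no comparison. Over T0, CBP60g was 5.50 times lower in 2-day control leaves (4.87 to 6.22) and was not called in explants. SARD1, a relative of CBP60g, was 7.96-fold higher in explants over T0 (6.59 to 9.69) and 4.11-fold in 2-day control leaves (3.37 to 5.04). The synthesis list had 2 higher and 1 lower in explants over T0 and 2 higher and 2 lower in 2-day control leaves over T0.

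Of 12 signalling and output genes, 1 (8.33%) was higher and 1 (8.33%) lower in explants over 2-day control leaves (median log2 ratio 0.080). These lie near the shares over all genes, 10.0% and 6.74%. PR5, a thaumatin-like defence protein, was 7.65-fold higher (6.14 to 9.64), and PR1, the usual salicylate marker, was 4.33 times lower (2.05 to 10.2). PR1 had 9 counts in explants, 37 in 2-day control leaves and 0 at T0, so its highest level was 0.776 CPM; it and NIMIN1, which encodes an NPR1-interacting protein, passed the filter through 2-day control leaves alone, and without both 1 of 10 was higher and 0 lower between the 2-day libraries, 2 were higher and 1 lower in explants over T0, and 1 was higher and 1 lower in 2-day control leaves over T0. The receptor genes NPR1, NPR3 and NPR4 were not called between the 2-day libraries. In explants and in 2-day control leaves over T0, 3 were higher and 1 lower each; scaled by total counts, 5 were higher in explants and 4 in 2-day control leaves, with 0 lower in either. PR2, a glucanase, had 265 counts in explants and 115 in 2-day control leaves, against 1 at T0. Of 6 genes of salicylate breakdown and the pipecolate branch, 3 reached the filter and 2 of these were higher in explants over 2-day control leaves: FMO1, which makes N-hydroxypipecolate, with 108 counts against 8, 12.8-fold (6.28 to 30.5), and AT5G52810, 2.78-fold (2.58 to 2.99). FMO1 had 0 counts at T0 and passed the filter through explants alone, and without it 1 of 2 was higher. In explants over T0 2 of the 3 were higher and 1 lower (1 of 2 higher without FMO1), and in 2-day control leaves over T0 1 was higher and 1 lower. DMR6, a salicylate hydroxylase, was the lower gene in both, but not called in explants over T0 when scaled by total counts.

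Of 6 genes for partners and modifiers of group III proteins, 0 were called between the 2-day libraries. Over all genes 10.0% were higher and 6.74% lower in explants over 2-day control leaves. In explants over T0 these shares were 17.8% and 13.3%, and in 2-day control leaves over T0 8.69% and 8.43%. MEKK1, a kinase that phosphorylates WRKY53, UPL5, a ubiquitin ligase that marks it for breakdown, ESP, which binds it, HDA19, the brassinosteroid regulator BES1, a transcription factor that works with WRKY54, and BIN2, a kinase that acts on WRKY54, had ratios of explants to 2-day control leaves between 0.547 for ESP and 1.09 for HDA19. MEKK1 was the 1 gene called over T0, 2.49 times lower in explants (2.37 to 2.62) and 2.20 times in 2-day control leaves (2.09 to 2.31), and both calls were lost when scaled by total counts. Of 9 senescence genes, 6 (66.7%) were higher and 1 (11.1%) lower in explants over 2-day control leaves (median 1.55). WRKY6 was 6.61-fold higher (6.09 to 7.18) and SAG12, a protease of senescing leaves and a known target of WRKY53, had 90 counts against 10, 8.55-fold higher (4.44 to 18.4). SAG12 passed the filter through explants alone, and without it 5 of 8 were higher and 1 lower (median 1.35). SEN1, a dark-induced gene, was 3.03 times lower (2.90 to 3.17). In explants over T0, 5 of the senescence genes were higher and 1 lower (median 1.93), or 4 of 8 higher and 1 lower without SAG12 (median 0.954). In 2-day control leaves over T0 2 were higher and 3 lower, with or without SAG12. Scaled by total counts, 3 were higher and 2 lower in that comparison, where the calls on SAG12 and on CAT2, a catalase, changed. SAG12 had 0 counts at T0, where WRKY53 had 826, and a link between the levels of these genes was not tested.

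Markers of cell types were read in the same libraries. Over all genes 10.0% were higher and 6.74% lower in explants over 2-day control leaves. In explants over 2-day control leaves 3 of 4 phloem markers were lower, with a summed level of 478 CPM in explants, 991 CPM in 2-day control leaves and 858 CPM at T0. The epidermal regulator ATML1 was 4.50 times lower (4.26 to 4.75), 1 of 3 epidermal markers, and the xylem gene CESA4 2.26 times lower (2.00 to 2.55), 1 of 4. With DESeq2 size factors or total counts 2 phloem markers were lower and CESA4 was not called. Of 4 mesophyll markers, 3 guard cell markers and the 3 of 4 root markers that reached the filter, 0 were called in this comparison, and COBL9, of root hairs, had 0 counts in explants and in 2-day control leaves and 2 at T0. Mesophyll markers summed to 5198 CPM in explants, 7155 CPM in 2-day control leaves and 11810 CPM at T0, with CAB3, a light-harvesting gene, lower in both 2-day libraries than at T0. Epidermal markers summed to 536, 633 and 590 CPM in explants, 2-day control leaves and T0, xylem markers to 12.2, 23.9 and 60.4 CPM, guard cell markers to 69.1, 89.6 and 127 CPM, and root markers to 55.7, 63.9 and 35.0 CPM. The part of these markers in the WRKY results was not tested.

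Genes were also ranked by how near their pattern lay to the median of the group. The genes nearest the median of the 6 group III genes, log2 ratios of 0.99 for explants over 2-day control leaves and -0.79 for 2-day control leaves over T0, were TSB1, NodGS, S6K2, NHO1 and FBS3. Their Euclidean distances to that pair of ratios, over 3 libraries and 7992 genes with a symbol and at least 150 counts, were 0.0146, 0.0377, 0.0676, 0.0862 and 0.0888. That median lies midway between WRKY41, with log2 ratios of 0.82 and 0.16, and WRKY46, with 1.16 and -1.75, and it depends on WRKY30, which passed the filter through explants alone. Without WRKY30 the median pair is that of WRKY41 itself, and 0 of these 5 genes are among the 5 nearest to it.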

How the data were processed

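The files held raw read counts per gene, deposited by the authors without normalization, 1 library each. Per the submitters' processing notes FastQC, HTSeq and DESeq were used with build TAIR10; aligner, annotation release and strand setting were not given in the sources used. Summary lines that name no gene were left out. From the deposited counts, TMM factors (1.07, 1.06 and 0.879 for explant, 2-day control and T0) were computed in edgeR 4.0.16 under R 4.3.3, and ratios with exact Clopper-Pearson intervals in scipy 1.17.1 under Python 3.11.15. No model was fitted, as a group of 1 library gives no spread. The calls were tested on simulated data in which 200 of 20109 genes were changed 4-fold. Of these, 93% were recovered in explants over 2-day control, 93% in explants over T0 and 96% in 2-day control over T0. False calls numbered 0, 1 and 0. These values do not cover changes near the 2-fold limit, nor spread between replicates, which 1 library per group cannot give.

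Gene names, exon lengths, overlaps and promoter windows came from the RefSeq annotation of TAIR10.1, to which all 9 loci matched; copies were searched with blastn 2.17.0. All 9 members are named in each comparison. From each list up to 2 genes higher and 2 lower per comparison were eligible, those with the interval bound farthest past the limit; the choice of other genes named was made with their values seen, and so was that of the pairs of members compared and the windows printed. The members and lists were chosen with earlier results of these data known. The alternatives were DESeq2 size factors (DESeq2 1.42.0), total counts, TMM from the compared libraries, limits of 4-fold and 1.5-fold, filters of 1 and 150 counts, a stricter interval level, counts thinned to the size of the smallest library, and, for log2 ratios, a prior count of 5 in place of 0.5. Leaving out genes that passed the filter through 1 library alone was added after seeing the data.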

Additional observations from a re-analysis of the deposited data

Results flagged for a closer look

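WRKY30 and WRKY53 lay on opposite sides of T0 in the 2 libraries taken at day 2. WRKY30 was 5.47 times the T0 level in explants (3.58 to 8.67). In 2-day control leaves, with 2 counts, it was 0.0636 times that level (0.0073 to 0.255). WRKY53 was 2.23 times in explants (2.06 to 2.42) and 0.185 times in 2-day control leaves (0.157 to 0.216). Genes outside group III were called on both sides of T0 as well, such as WRKY29 (5.09 and 0.158) and PR5 (2.88 and 0.376). Both ratios of each gene share the T0 library, and with 1 library per group the difference was not tested.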

How the results depend on the processing

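Scaling by DESeq2 size factors, by total counts or by TMM from the compared libraries and thinning to the smallest library changed none of the 18 calls on the 6 genes past the filter, and no called gene reversed direction under any alternative. The prior count enters the log2 ratios and not the calls. With a limit of 1.5-fold 2 genes were lower in explants over 2-day control leaves, WRKY54 joining WRKY70, and 3 higher, WRKY46 joining. With 4-fold 0 were lower there, 0 were higher in explants over T0, and in 2-day control leaves over T0 0 were higher and 1, WRKY53, was lower. With a stricter interval level 0 were lower in explants over 2-day control leaves and 1, WRKY30, was higher in explants over T0. With a filter of 1 count 3 were higher in 2-day control leaves over T0, WRKY38 and WRKY55 joining WRKY54, and 4 in explants over T0, WRKY38 joining. A filter of 150 counts leaves WRKY41 out and changed no call on the others. Leaving out WRKY30, which passed the filter through 1 library alone, an alternative chosen after seeing the data, 1 gene was higher in explants over 2-day control leaves. Under total counts the share of higher among all called genes was 70.1% in explants over T0 and 67.7% in 2-day control leaves over T0, against 57.1% and 50.8% under TMM. No paired analysis was possible because each group has 1 library, and none could be left out. Depth limits WRKY38, WRKY55 and WRKY62 most, where 3 counts were worth 0.0597 CPM in explants, 0.0629 CPM in 2-day control leaves and 0.0791 CPM at T0.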
